A study of Arabidopsis thaliana with 6 samples.

Results

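WRKY proteins are a plant family of transcription factors. They carry a conserved DNA-binding domain with a zinc finger and bind a short promoter element, the W box, found in many defence genes and in WRKY genes themselves. Receptors that sense microbial or damage signals act through MAP kinase cascades, which phosphorylate WRKY proteins or raise WRKY transcription, and many WRKY transcripts are known to rise quickly after wounding or elicitor treatment. Groups are told apart by the number of WRKY domains and the type of zinc finger, with group I proteins carrying a pair of domains and groups II and III a single one.

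The members were the probe sets that the platform annotation pairs with exactly 1 gene whose symbol is WRKY followed by a number, and 6 of 22810 probe sets met this rule. They stand for WRKY20 of group I, WRKY6, WRKY42 and WRKY47 of group IIb, WRKY22 of group IIe and WRKY53 of group III. The reference gene table lists 67 genes with such a symbol, and the others were not analysed here. WRKY1 has a probe set that is listed under its other name, ZAP1, so it fell outside the rule and is described separately.

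The RNA came from root protoplasts that had passed through a fluorescence-activated cell sorter with all cells kept (sorted cells, 3 arrays), and from intact whole roots (3 arrays). Both were taken from Arabidopsis thaliana seedlings of the Columbia ecotype at an age of 6 days from germination. Both had spent 24 hours on medium with 0.3 mM of the iron chelator ferrozine in place of ferrous sulfate, so every sample was iron-deficient and no iron-replete root was compared. The labels do not say whether replicates were separate cultures, so a p-value reflects just how far these arrays differ among themselves, and that spread could be technical.

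Values are MAS5 signal intensities, 1 array per sample, and their precision is limited by the small number of arrays. A signal is called above background where it exceeded the brightest of 27 Bacillus control probe sets on the same array, which read 57.4, 36.3 and 14.3 in sorted cells and 16.8, 11.8 and 10.4 in whole roots. Arrays correlated with each other at 0.876 to 0.948 in sorted cells and at 0.966 to 0.974 in whole roots (Pearson's r of log2 intensities over 13647 probe sets; probe sets are not independent of each other). The 4 root cell markers with a probe set, of 14 listed, were lower in sorted cells: they summed to 700 to 762 in sorted cells and 3235 to 3751 in whole roots, with none at 0. The whole-root sum came mainly from EXPA18 and EXPA7, with means of 1702 and 1093, against 540.5 for LHW and 114 for JKD. JKD was above background on 2 of 3 sorted-cell arrays. The log2 differences of EXPA18, EXPA7, JKD and LHW were -3.33, -2.31, -2.13 and -0.79. Of all tested probe sets 30.7% were called lower by limma. The sorted-cell mean of JKD, 27.1, lay under 53.9, the limit of the intensity filter described below. JKD was thus tested because of its level in whole roots, and its fall gives no support as a count. LHW, the stele marker among them, lost its limma call with quantile normalization or without whole-root replicate 1 or 2 or sorted-cell replicate 3 (adjusted p 0.055 to 0.097). The 2 green tissue markers, of 10 listed, summed to 68.2 to 141 in sorted cells and 503 to 569 in whole roots. The lowest sum was on sorted-cell replicate 2, where RCA (35.4) and LHCB4.1 (32.8) were both under background. RCA, with a sorted-cell mean of 45.1, also lay under the filter limit there and was tested because of its level in whole roots.

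**Figure D1:**
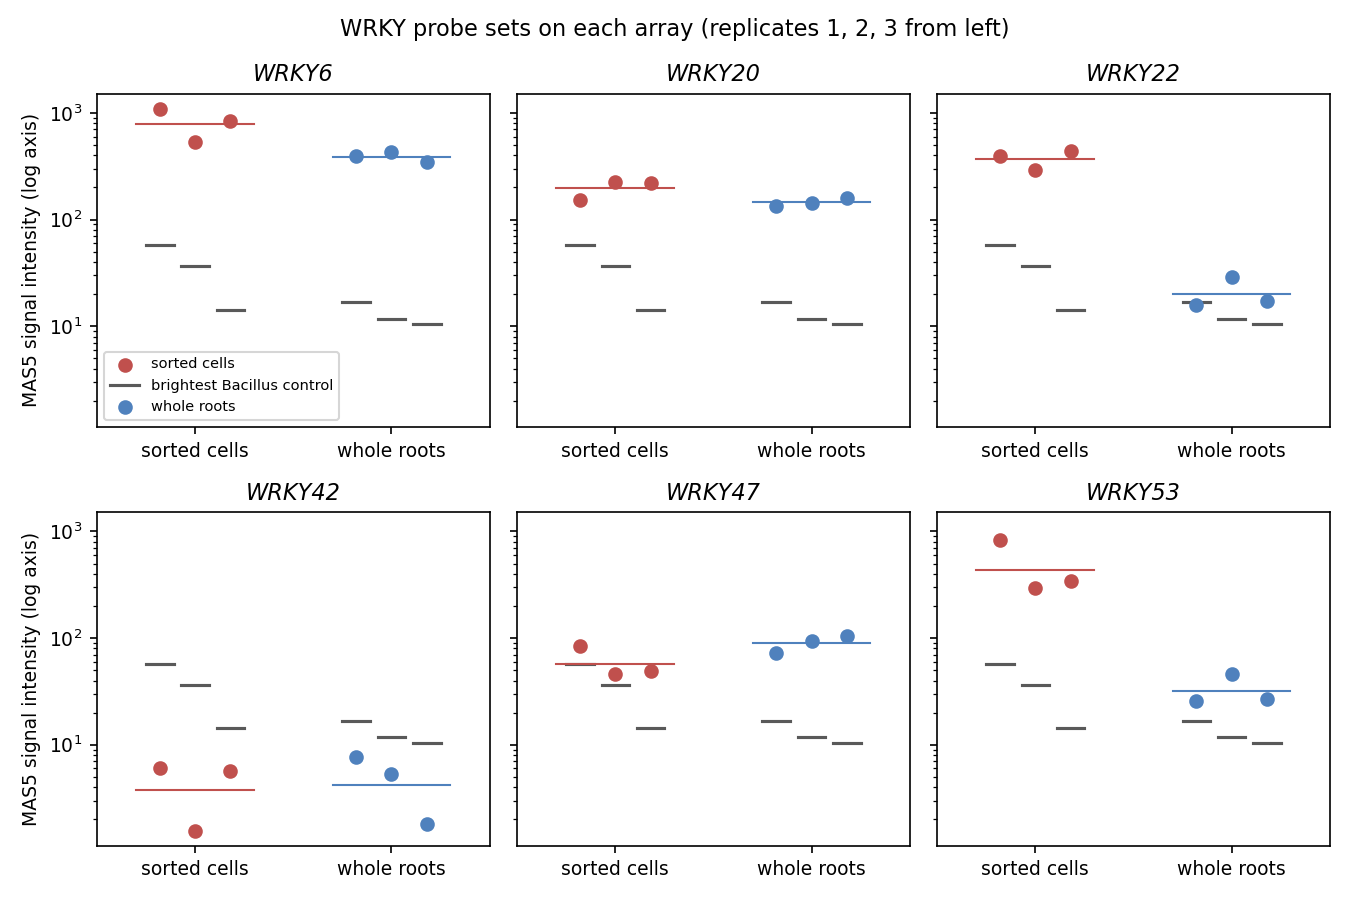
MAS5 signal intensity (log axis) of the 6 WRKY probe sets on each array, sorted cells left and whole roots right. Points are arrays, coloured lines are geometric means over 3 arrays, and short grey lines mark the brightest Bacillus control of each array. WRKY22 and WRKY53 are well apart between the groups, WRKY6 is higher in sorted cells by a smaller step, WRKY20 and WRKY47 overlap, and WRKY42 lies under the background mark everywhere.

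Of the 6 members, 5 passed the filter that left out the dimmest 40% of probe sets. In sorted cells against whole roots 3 of these were higher by limma (Benjamini-Hochberg adjusted over 13647 probe sets), 2 did not pass and 0 were lower, also at an unadjusted p under 0.05. Over all tested probe sets 55.4% were called, 24.7% higher and 30.7% lower, so a call on its own is common in this comparison. In bulk samples a change in the share of a cell type and a change of RNA per cell cannot be told apart.

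WRKY22 acts downstream of the flagellin receptor and its MAP kinase cascade and activates defence genes. Its signal was 398, 290 and 443 in sorted cells, against 15.9, 29.0 and 17.1 in whole roots. All sorted-cell arrays lay about an order of magnitude above all whole-root arrays, and the whole-root signal was near background, above it on 2 of 3 arrays. The log2 difference was 4.22 (SE 0.31, 95% interval 3.52 to 4.93; limma adjusted p = 1.93e-05), or 18.7-fold, and 196 other tested probe sets had a larger rise. With an offset of 64 under the log, the difference of WRKY22 was 2.37.

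WRKY53, a regulator of leaf senescence that responds to hydrogen peroxide, read 823, 294 and 339 in sorted cells, against 25.6, 45.5 and 27.0 in whole roots. The groups lay far apart and all whole-root arrays were above background, if dim. The spread was larger than for WRKY22, since sorted-cell replicate 1 stood well above the other two. The log2 difference was 3.78 (SE 0.41, 95% interval 2.87 to 4.70; limma adjusted p = 0.000104), or 13.8-fold, and 2.39 with the offset of 64. Without sorted-cell replicate 1 it was 3.32 and passed.

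Neither gene would have passed the filter on its whole-root signal, whose means of 20.6 for WRKY22 and 32.7 for WRKY53 lay under the limit of 53.9. They were tested because of their level in sorted cells, and among the 1136 tested probe sets of this kind 79.4% were called higher, against 19.8% of those whose whole-root mean was over the limit. Their calls are therefore a description of 2 transcripts that were dim in intact roots and bright in sorted cells, and give no support as a count.

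WRKY6, known from senescence and defence and as a repressor of the phosphate exporter gene PHO1, differed from these in being well measured in both preparations. It read 1096, 538 and 837 in sorted cells, against 395, 428 and 345 in whole roots, with no overlap. The lowest sorted-cell array was replicate 2. It rose by a log2 difference of 1.03 (SE 0.27, 95% interval 0.41 to 1.64; limma adjusted p = 0.011), or 2.04-fold with an interval of 1.33 to 3.13, but stood at -0.59 when arrays were centred on spike-in controls. Among all tested probe sets 82.0% had a smaller difference.

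WRKY47 shares group IIb with WRKY6. Its signal was 83.8, 45.7 and 49.4 in sorted cells, against 72.9, 94.1 and 105 in whole roots, and sorted-cell replicate 1 lay within the whole-root range. The log2 difference of -0.65 (SE 0.33, 95% interval -1.38 to 0.090; limma adjusted p = 0.119) did not pass. Without sorted-cell replicate 1 WRKY47 stood at -0.92 and passed (limma adjusted p = 0.0174).

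WRKY42, the remaining gene of group IIb, is another repressor of PHO1. It read 6.04, 1.57 and 5.64 in sorted cells and 7.64, 5.27 and 1.82 in whole roots, under background on all 6 arrays. It did not pass the filter, and no fold change is given. At this signal a difference between the preparations was not detectable.

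WRKY20, the group I member, read 152, 226 and 220 in sorted cells, against 134, 144 and 159 in whole roots. Sorted-cell replicate 1 lay within the whole-root range and the other sorted-cell arrays above it. The log2 difference of 0.43 (SE 0.22, 95% interval -0.070 to 0.93; limma adjusted p = 0.125) did not pass. Without sorted-cell replicate 1 it was 0.61 and passed (limma adjusted p = 0.0191), and with spike-in centring it was -1.18 and passed in that direction.

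Sorted-cell replicate 1 was thus the array that set the spread of WRKY20, WRKY47 and WRKY53. The actin 3′ probe set exceeded the 5′ one by 5.53, 4.09 and 3.37 in sorted cells and by 1.60, 1.61 and 1.85 in whole roots (log2 differences), with replicate 1 the highest of all arrays. The same difference for ubiquitin was 3.49, 2.20 and 2.09 in sorted cells and 1.84, 1.79 and 1.97 in whole roots, and for GAPDH it was 2.46, 1.42 and 1.20 in sorted cells and 0.64, 0.39 and 0.43 in whole roots. The ubiquitin values thus stood apart mainly on sorted-cell replicate 1. The 25S ribosomal RNA control read 5690, 9583 and 8318 in sorted cells and 97.5, 551 and 378 in whole roots, and was lowest on replicate 1 within both groups. The 18 probe sets of the hybridisation spike-in controls, bacterial and phage transcripts normally added to the labelled sample in a set amount, had geometric means of 2310, 1413 and 853 in sorted cells and 436, 467 and 476 in whole roots. These signals were thus higher on every sorted-cell array, by 1.61 on the log2 scale on average, and highest on replicate 1. Their part in the differences of the WRKY genes was not tested. WRKY6, WRKY22 and WRKY53 kept a limma call without that array, at 0.79, 4.17 and 3.32.

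**Figure D2:**
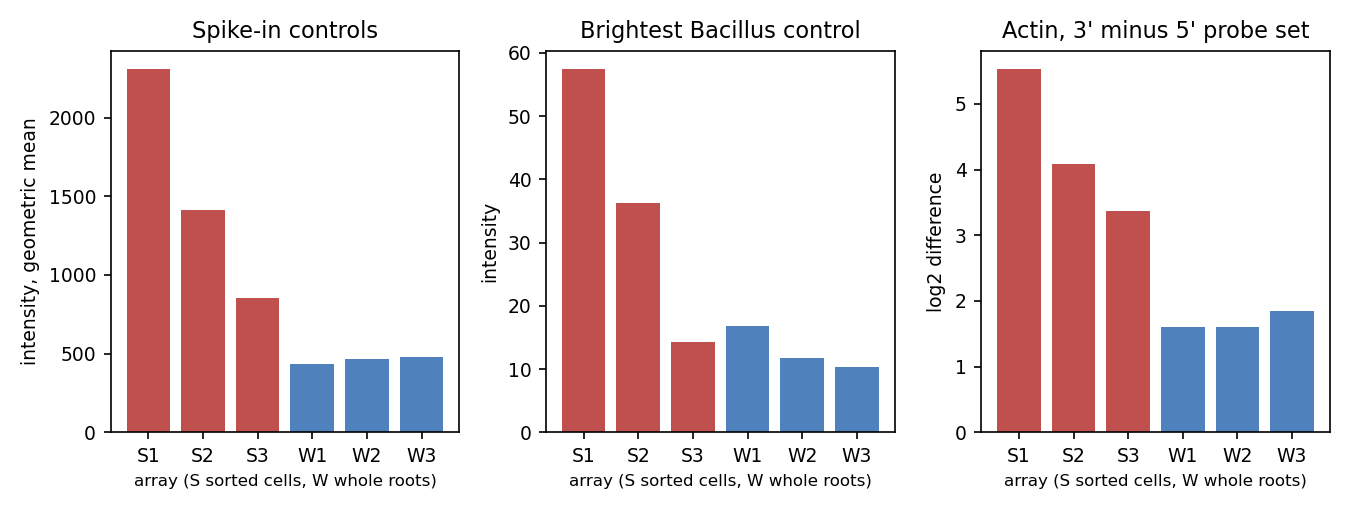
Control signals on each array, sorted cells (S1 to S3, red) left of whole roots (W1 to W3, blue): geometric mean intensity of 18 spike-in probe sets, intensity of the brightest Bacillus control, and log2 difference between the 3′ and 5′ actin probe sets. Bars are single arrays. Sorted-cell replicate 1 is the highest array in each panel, at 2310, 57.4 and 5.53.

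The arrays had been deposited scaled to a common trimmed mean, and the median log2 difference over all tested probe sets was -0.16. Centring each array on its spike-in controls instead, an alternative chosen after seeing the data, moved that median to -1.78 and every WRKY difference by the same amount. WRKY22 and WRKY53 were then higher at 2.61 and 2.17, WRKY47 was lower at -2.26 (limma adjusted p = 2.88e-05), and WRKY6 at -0.59 did not pass (limma adjusted p = 0.359). Relative to the median of all tested probe sets, the WRKY differences were 4.38 for WRKY22, 3.94 for WRKY53, 1.19 for WRKY6, 0.59 for WRKY20 and -0.48 for WRKY47 under both scalings.

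**Figure D3:**
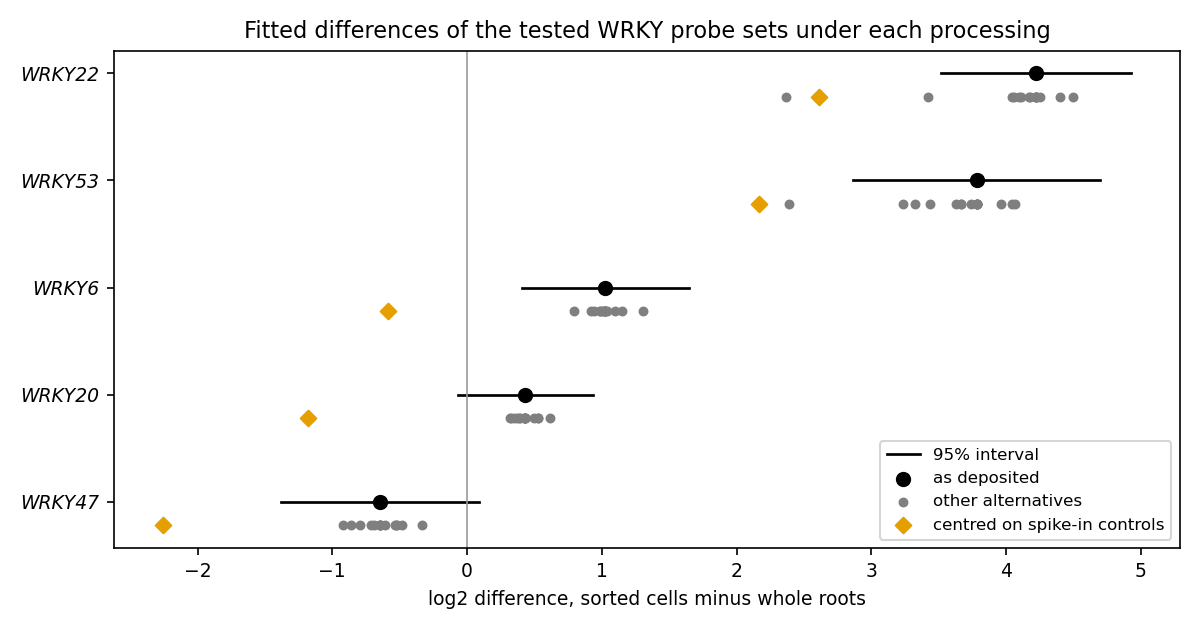
Log2 difference, sorted cells minus whole roots, of the 5 tested WRKY probe sets. Black points and bars are the fit to the deposited values with its 95% interval, grey points other processing alternatives and orange diamonds spike-in centring. WRKY22 and WRKY53 lie above 0 in every alternative shown, while WRKY6 and WRKY20 change sign with spike-in centring, to -0.59 and -1.18.

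Differences between members do not depend on a scaling of whole arrays, because both signals come from the same array. The log2 ratio of WRKY6 to WRKY47 averaged 3.78 ± 0.27 in sorted cells and 2.11 ± 0.37 in whole roots (SD, 3 arrays each; p = 0.1 by an exact two-sided permutation test). The ratio lay between 3.56 and 4.08 in sorted cells and between 1.71 and 2.44 in whole roots, without overlap and with a difference between the groups of 1.67, which did not pass after adjustment over the pairs. The ratio of WRKY22 to WRKY53 averaged -0.23 ± 0.74 in sorted cells and -0.67 ± 0.019 in whole roots, with the whole-root values inside the sorted-cell range (p = 0.4 by the same exact test). Of the 10 pairs of tested members 7 had ratios that did not overlap between the groups. Each of the 7 had the smallest p that 3 arrays against 3 allow, 0.1, and an adjusted p of 0.143 over the 10 pairs, so none could pass. Of the 7, 6 hold WRKY22 or WRKY53, which were tested because of their level in sorted cells, so that this count was favoured by the filter, and the share among all pairs of probe sets was not computed. The pairs with overlap were WRKY22 with WRKY53, WRKY6 with WRKY20 and WRKY20 with WRKY47.

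Set by their expression in intact roots, 4 members were above background on all whole-root arrays, WRKY6, WRKY20, WRKY47 and WRKY53. Of these 2 were called higher and 0 lower by limma, with a median log2 difference of 0.73, where 23.5% of all 13406 tested probe sets of this class were higher and their median was -0.18. WRKY53 was among the 2, and its whole-root mean of 32.7 lay under the filter limit. It was tested because of its level in sorted cells, so this count and median were favoured by the filter and give no support. WRKY22 was above background on some whole-root arrays, in a class of 184 tested probe sets of which 96.2% were higher, and WRKY42 on none. The split uses whole-root values that also enter the difference, so it has no test. Among the 3 members whose whole-root mean exceeded the filter limit, WRKY6 was called higher and WRKY20 and WRKY47 did not pass. For WRKY6, WRKY22 and WRKY53 the groups did not overlap, as for 65.2% of all tested probe sets.

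**Figure D4:**
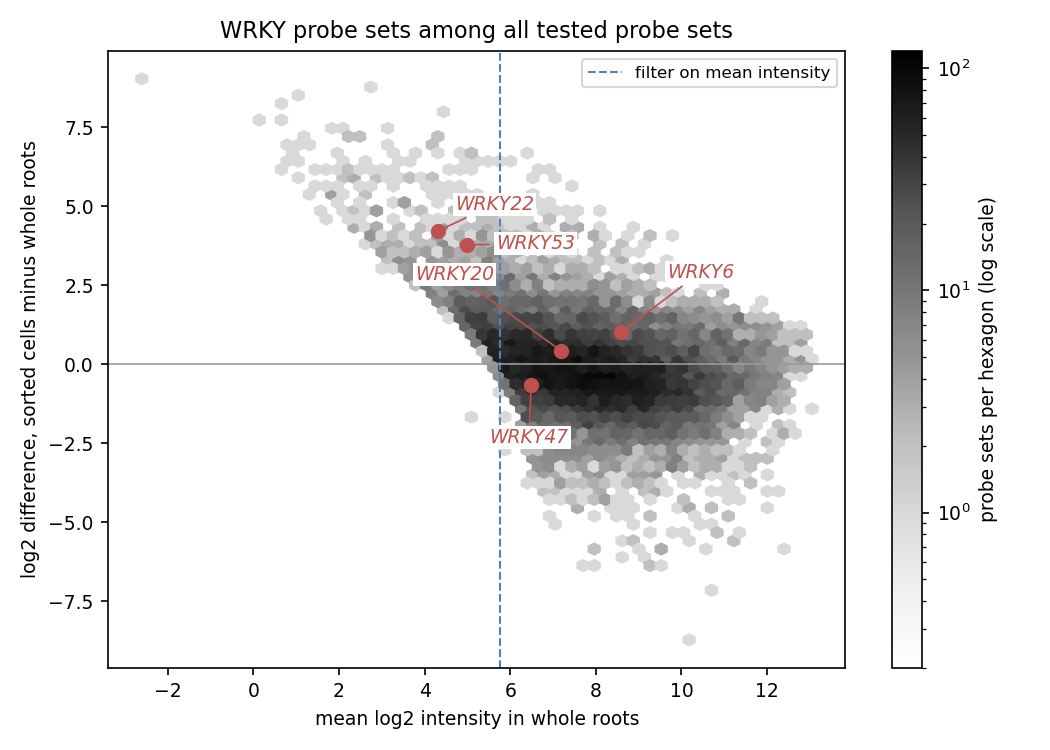
Mean log2 intensity in whole roots against the log2 difference, sorted cells minus whole roots, for 13647 tested probe sets (grey, darker where denser) with the 5 tested WRKY probe sets in red. The dashed line marks the filter limit of 53.9 on the mean of all arrays, and WRKY22 and WRKY53 lie left of it, where nearly all probe sets shown lie above 0.

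ZAP1, which carries the synonym WRKY1, went the other way. It read 70.8, 128 and 171 in sorted cells, against 289, 294 and 315 in whole roots, so each sorted-cell array lay under each whole-root array and replicate 1 was the lowest. It fell by 1.37 on the log2 scale (SE 0.31, 95% interval -2.06 to -0.68; limma adjusted p = 0.00479).

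The lists of genes around the WRKY proteins were thinly covered. Only probe sets that the annotation pairs with exactly 1 gene were searched, here and for the other gene lists. Of 10 listed receptors and kinases upstream 2 had such a probe set and 1 was tested. None of 14 MAP kinase cascade genes or of 25 WRKY target genes had such a probe set. BIK1, a cytoplasmic kinase that relays signals of the flagellin receptor, read 174, 143 and 218 in sorted cells, against 246, 430 and 443 in whole roots. The groups were apart, as for 65.2% of all tested probe sets. BIK1 fell by 1.04 on the log2 scale (SE 0.28, limma adjusted p = 0.0117), where 30.7% of all tested probe sets were lower. It lost its call without whole-root replicate 2 (-0.91, adjusted p = 0.0519) or whole-root replicate 3 (-0.89, adjusted p = 0.0535). EFR, the receptor of a bacterial elongation factor, was under background on all arrays.

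Of 12 listed genes of VQ proteins, small partners of WRKY factors, 4 had a probe set and 2 were tested, of which 1 was higher and 1 lower. Over all tested probe sets 24.7% were higher and 30.7% lower, so these calls say little about the list. IKU1, which acts with a WRKY protein in seed growth, read 140, 87.0 and 133 in sorted cells, against 179, 216 and 177 in whole roots. The groups did not overlap, as for 65.2% of all tested probe sets. IKU1 fell by 0.69 on the log2 scale (SE 0.24; limma adjusted p = 0.0356) but lost this call under 9 of 18 alternatives, with adjusted p up to 0.131. AT2G22880, which the tables used here name by locus alone, read 452, 42.3 and 174 in sorted cells, against 1.04, 11.0 and 2.64 in whole roots. It was under background on all whole-root arrays, and at least 11.8-fold higher in sorted cells (limma adjusted p = 0.00366). Its whole-root mean of 4.89 lay under the filter limit of 53.9, so it too was tested because of its level in sorted cells, and its call gives no more support than those of WRKY22 and WRKY53. The sorted-cell arrays of AT2G22880 were wide apart, and its fitted log2 difference of 5.58, which is no bound, ran from 4.79 without sorted-cell replicate 1 to 6.49 without whole-root or sorted-cell replicate 2 and was 1.78 with the offset of 64. The 2 untested genes of this list, AT1G78410 and AT3G18360, were dim on all arrays, at most 38.6 and 33.0.

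The bZIP family, another group of plant transcription factors with 14 probe sets under the same naming rule, is set beside the WRKY genes as a description. Of 8 tested bZIP genes 2 were higher, 4 lower and 2 did not pass by limma, where 24.7% of all tested probe sets were higher and 30.7% lower. Log2 differences ranged from -0.98 to 2.83 among tested bZIP genes and from -0.65 to 4.22 among tested WRKY genes. The WRKY range holds only for genes under the naming rule and leaves out ZAP1 (WRKY1), which was lower, at -1.37. The upper end of the WRKY range is WRKY22, which was tested because of its level in sorted cells. The difference between the families was not tested.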

How the data were processed

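Each of 3 sorted-cell and 3 whole-root samples was measured on 1 Affymetrix array. Column-purified RNA was labelled after a 2-cycle amplification, alike in both groups, per the labels' protocols. The deposited values are MAS5 signal intensities on a linear scale, per the submitters' processing notes, with the version and detection calls not given in the sources used here. Array means after trimming 2% at each end were 250.02 to 250.03, so the values were used as deposited.

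Of 22810 probe sets 64 are controls, and 13513 pair with 1 gene; of these 13436 matched the reference table (assembly TAIR10.1), used for names only. Log2 intensities of 13647 probe sets, after leaving out controls and the dimmest 40% by mean over all arrays, went into a linear model per probe set (limma 3.58.1, R 4.3.3; sorted cells minus whole roots; eBayes with a variance trend). Adjusted p-values under 0.05 (Benjamini-Hochberg) were called. Member ratios were compared by exact permutation tests. Other values used Python 3.11.15, pandas 2.3.3, numpy 2.4.6, scipy 1.17.1 and matplotlib 3.10.9. The fit was checked for recovering the mean size of changes put into simulated data. That simulation changed few probe sets and gave both groups the same spread, so it does not bear on the calls here.

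All members could be named; each partner list gave at most 4 called genes, by size of change, and at most 2 others, by mean. An N-fold bound (at least) replaces the fold where every array of the dimmer group read no higher than its brightest Bacillus control. It concerns geometric means over arrays and leaves out their spread. Members, lists and this level were chosen with earlier results of these data known, and ZAP1, the bZIP family and genes named as untested were added after the annotation or values were seen. Alternatives were the replicate number as a block, leaving out each array, array quality weights, robust variance, no variance trend, a 60% filter and none, offsets of 16 and 64, median centring, quantile normalization, a 2-fold threshold and, added after seeing the data, spike-in centring. The values gave no sign that replicate numbers pair the samples: deviations of same-numbered arrays from their group means correlated at -0.29, -0.16 and -0.042. With so few arrays this cannot show whether same-numbered samples shared a culture, which the labels do not say.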

Additional observations from a re-analysis of the deposited data

How the results depend on the processing

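Apart from spike-in centring and the 2-fold threshold, the 5 tested WRKY genes kept their direction under all 16 alternatives, and 75 of 79 values also kept their side of the threshold. The exceptions were WRKY20 (0.53 and 0.61) and WRKY47 (-0.86 and -0.92), which passed with array quality weights and without sorted-cell replicate 1. Spike-in centring reversed WRKY6 (-0.59) and WRKY20 (-1.18) and made 2 WRKY genes lower. The number of WRKY members, which leave out ZAP1, called lower was 1 with array quality weights and 0 to 1 with single arrays left out. The number called higher was 2 to 4 over all alternatives. Over all probe sets spike-in centring called 558 higher and 9640 lower, against 3377 and 4187, or 5.47% against 44.6% of calls higher; the cause was not tested.

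With the replicate number as a block 3068 probe sets were higher and 3747 lower, the WRKY counts were unchanged at 3 and 0, and of the partner genes only IKU1 lost its call, leaving 1 lower; none of the 6 arrays was closest to the array with its own number. Among partner genes 0 were higher and 1 lower with the 60% filter, and 3 and 1 with no filter. The set of genes tested changed with the filter. IKU1 was tested under both and lost its call (limma adjusted p = 0.0501 with the 60% filter and 0.0578 with none). Of partner genes 1 was lower with quantile normalization or the 2-fold threshold, and 0 to 2 were lower with single arrays left out. Without whole-root replicate 2 or 3 none was lower, against 2 with all arrays; the cause was not tested. Of bZIP genes 2 and 1 were lower without whole-root replicate 2 and 3, and 0 with the 2-fold threshold. Taking at least 100 on all whole-root arrays as expressed left 2 members, and above background on at least 2 of 3 arrays gave 5, against 4. The medians of partner lists had too few tested genes to be given, and the planned W-box counts were not run for lack of promoter sequences. Signal near background limits WRKY42 and the size of the WRKY22 and WRKY53 differences.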
